A study of Rattus norvegicus with 12 samples.

Results

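Genes that carry water and ions across cell membranes, or regulate such transport, were followed in the mammary gland of ovariectomized rats: the water channel genes Aqp5, Aqp1, Aqp3 and Aqp7, the chloride genes Clca1, Cftr and Slc12a2, the sodium channel gene Scnn1a, the phosphate transporter gene Slc34a2 and the calcium pump gene Atp2b2. They were chosen by symbol, with earlier results of these data known. Each was read from the probe set that carries that symbol alone and has the highest mean intensity. Each of the 10 genes had 1 such probe set among the 29214 on the array, of which 15310 carry 1 gene symbol, 323 carry several and 13581 carry none. For 9 of the 10 genes the signal lay above a filter on low values and was tested. Cftr lay below it, and its values are given without a test.

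All 12 animals were female Lewis rats whose ovaries had been removed at an age of about 10 weeks, so that no group had ovarian estrogen. From 14 days after surgery, groups of 3 rats received 3 subcutaneous treatments, one every 24 hr, with vehicle (DMSO in castor oil), with 17β-estradiol (E2, 4 µg/kg body weight per day), with 3-methylcholanthrene (3-MC, 15 mg/kg per day) or with both (E2 + 3-MC). E2 is the main ovarian estrogen and activates the estrogen receptor, whereas 3-MC is a polycyclic aromatic hydrocarbon that activates the aryl hydrocarbon receptor (AHR). Glands were taken 24 hr after the last dose, while the labels speak of 48 h of treatment. RNA of each rat's mammary gland tissue, which mixes epithelial, fat, stromal, vascular and immune cells, went to 1 Affymetrix rat gene array. The arrays' median intensity ran from 85.7 to 109.5, and log2 values of any pair of arrays correlated at 0.952 to 0.988 over all probe sets. No 2 arrays held the same values. The number of arrays limits the precision, and the smallest p of an exact two-sided permutation test is 0.1 for 3 rats a group. Markers of skeletal muscle differed widely between rats of the same group. The median log2 level of the 12 muscle genes was -3.95 in vehicle rat 3 and -3.72 in 3-MC rat 3, against 1.16 to 2.13 in the other rats of those groups. It was -0.28, -2.73 and -1.12 with E2 and -2.12, -1.97 and -3.38 with E2 + 3-MC. Every rat given E2 thus lay under those other rats and above vehicle rat 3 and 3-MC rat 3. With this level as a covariate, the same number of these transport genes passed in the E2 comparison, 4.

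Aquaporins are membrane pores that let water pass along an osmotic gradient, and some of them, Aqp3 and Aqp7 among these, let glycerol pass as well. In a secretory epithelium, chloride taken up across the basolateral membrane by Slc12a2 (the sodium, potassium and chloride cotransporter NKCC1) leaves through apical channels such as Cftr, and water follows. The epithelial sodium channel, built from the subunits of Scnn1a, Scnn1b and Scnn1g, takes sodium back up on the apical side. In the mammary gland such transport sets the water and mineral content of milk, with Slc34a2 (NaPi-IIb) carrying phosphate and Atp2b2 (PMCA2) pumping calcium across the apical membrane. Clca1 is a secreted protein that modulates calcium-activated chloride channels.

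The upstream sequences of Aqp5, Clca1 and Aqp1 are shown because the treatments act through receptors that bind DNA. Of the 10 genes followed, these had the clearest differences with E2 among those with a sequence here. Each covers the 250 bases before the annotated start in GRCr8, from RefSeq, and is written 5′ to 3′ in the direction of the gene. Capitals mark GGTCA or its reverse complement TGACC, the half-site of an estrogen response element, and GCGTG or its reverse complement CACGC, the core of a xenobiotic response element, which the AHR binds with its partner ARNT. Both strands were searched. The windows lie at chr7:132601278-132601527 on the plus strand for Aqp5, at chr2:236624715-236624964 on the minus strand for Clca1 and at chr4:85812534-85812783 on the plus strand for Aqp1.
Aqp5: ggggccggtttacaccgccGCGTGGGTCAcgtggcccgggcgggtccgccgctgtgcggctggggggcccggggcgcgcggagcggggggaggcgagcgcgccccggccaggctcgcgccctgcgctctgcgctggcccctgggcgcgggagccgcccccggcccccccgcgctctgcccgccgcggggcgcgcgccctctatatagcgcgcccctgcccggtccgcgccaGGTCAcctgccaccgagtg
Clca1: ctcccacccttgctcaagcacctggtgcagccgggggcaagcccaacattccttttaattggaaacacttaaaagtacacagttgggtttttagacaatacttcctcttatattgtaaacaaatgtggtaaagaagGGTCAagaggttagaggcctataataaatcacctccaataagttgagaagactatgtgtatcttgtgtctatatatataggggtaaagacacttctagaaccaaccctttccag
Aqp1: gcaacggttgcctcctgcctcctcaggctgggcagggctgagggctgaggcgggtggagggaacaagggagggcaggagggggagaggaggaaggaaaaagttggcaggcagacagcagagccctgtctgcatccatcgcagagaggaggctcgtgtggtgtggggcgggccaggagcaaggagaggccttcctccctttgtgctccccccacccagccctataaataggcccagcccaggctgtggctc

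The Aqp5 window held both kinds of letters. Its GCGTG starts at position -231, counted back from the start, and runs directly and without overlap into a GGTCA at -226, and a second GGTCA lies at -19. The Clca1 window held 1 GGTCA at -114 and no xenobiotic core, and the Aqp1 window held neither. The windows also differed in base composition, with 83.2% G and C for Aqp5, 65.2% for Aqp1 and 40.8% for Clca1. Of the 8 genes with a window, 3 held a half-site (Aqp5, Clca1 and Atp2b2) and 5 held a xenobiotic core (Aqp5, Slc12a2, Slc34a2, Atp2b2 and Cftr). Among all 33469 windows of this length, 35.4% held a half-site, 25.9% held a xenobiotic core and 9.07% held both. A full palindrome, GGTCA and TGACC with 3 bases between them, was in none of the 8 and in 0.0239% of all windows. Such matches describe letters and not binding. Aqp7 and Scnn1a had no window.

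E2 was compared with vehicle to see how the estrogen alone altered these genes. Aqp5, Clca1 and Scnn1a were up-regulated and Aqp1 was down-regulated, while the other 5 tested genes did not pass. A gene passed when its adjusted p in limma (Benjamini-Hochberg over all 23371 probe sets tested) was under 0.05 and its difference was at least 1.5-fold. By this rule, 4 of the 9 tested genes passed, where 1.58% of all tested probe sets did (303 higher and 67 lower). The median log2 difference of the 9 genes was 0.30, against 0.02 over all tested probe sets. Since the genes were chosen with earlier results of these data known, these comparisons do not test whether such genes respond more often than others. Log2 differences were taken on intensity + 16, so that the fold of a dim gene is understated. In RNA of unsorted gland tissue, fewer cells of a type and less RNA per cell cannot be told apart.

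Aqp5, the water channel of the apical membrane in salivary, lacrimal and airway glands, had intensities of 207, 363 and 275 in the vehicle rats. With E2 they were 1053, 1303 and 1297. With 3-MC they were 325, 275 and 416, and with E2 + 3-MC they were 1067, 944 and 1482. Thus the 6 rats given E2, with or without 3-MC, all lay above the 6 rats that were not. The mean was 282 ± 78.6 with vehicle and 1218 ± 142 with E2 (mean intensity ± SD of 3 rats). The log2 difference between these groups was 2.08 (standard error 0.22, 95% interval 1.61 to 2.54, adjusted p = 0.000253 in limma), a rise of 4.22-fold.

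**Figure D1:**
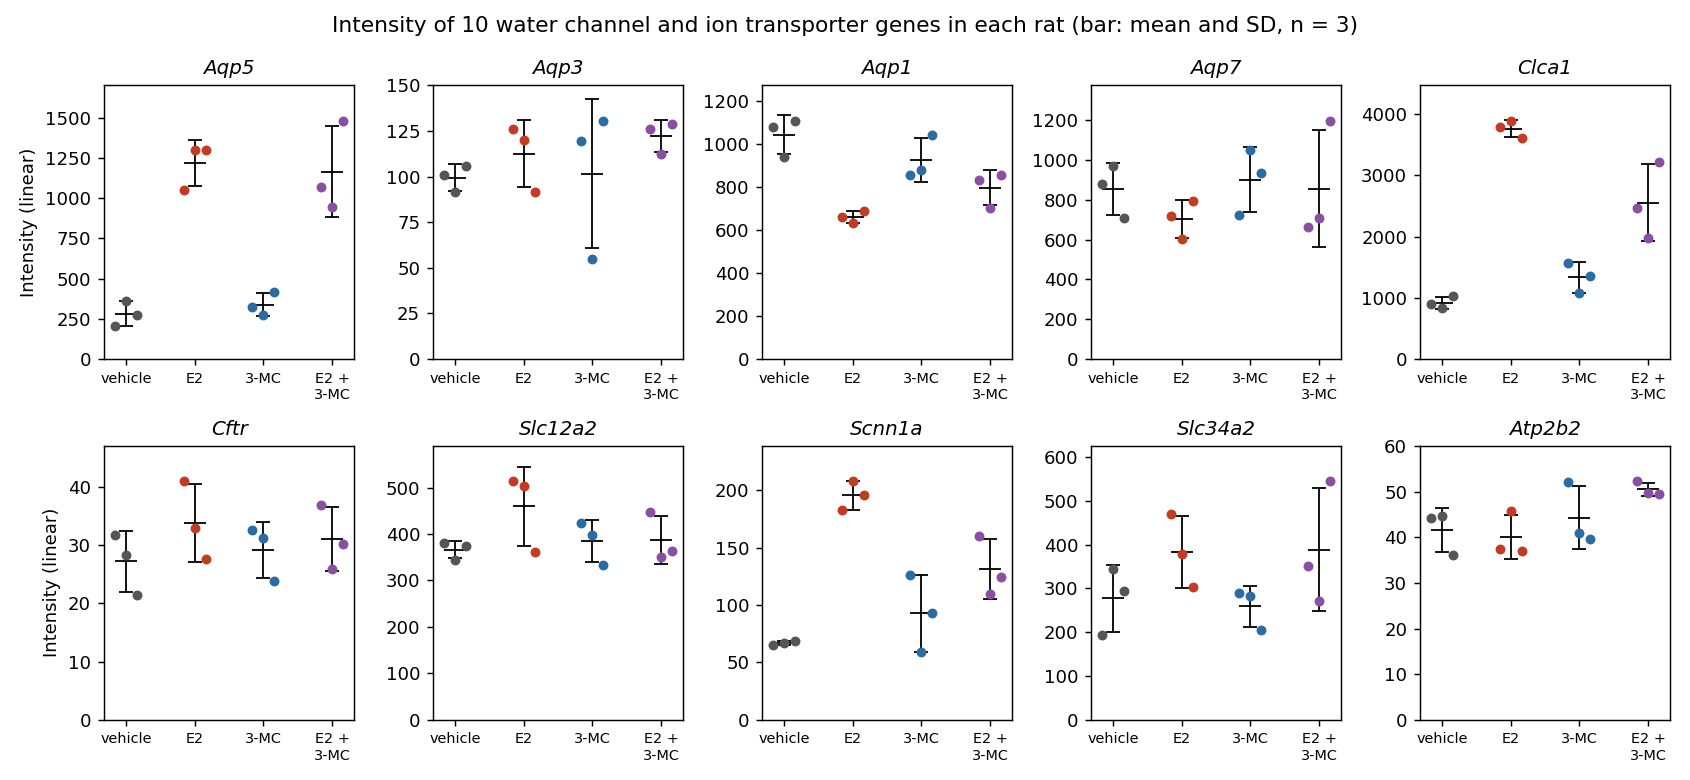
Linear intensity of each of the 10 genes in each rat, by treatment (x axis, 3 rats a group). Each point is a rat and each bar gives the group's mean with its SD, on axes that start at 0 and differ between genes, and for Aqp5 the rats given E2 lie at 944 or higher and the other rats at 416 or lower.

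Aqp1, the water channel of red cells and of the endothelium of small vessels, moved the other way. Its intensities were 1082, 942 and 1110.5 in the vehicle rats and 661, 634 and 689 in the E2 rats, without overlap. With 3-MC they were 858, 882 and 1045, and with E2 + 3-MC they were 832, 704 and 858. The rats given both treatments lay between the E2 rats and the vehicle rats, and their highest value, 857.5, was just under the lowest with 3-MC alone, 858.1. With E2, Aqp1 fell by 0.64 on the log2 scale (standard error 0.13, 95% interval -0.92 to -0.37, adjusted p = 0.0248 in limma), a 1.56-fold difference. This call depended on single rats. It was lost without vehicle rat 1 (adjusted p = 0.0926) or 3 (0.0709) and without E2 rat 1 (0.103), 2 (0.136) or 3 (0.0583), all in limma, while the log2 difference stayed between -0.72 and -0.60 whichever of the 12 rats was left out.

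The aquaglyceroporins did not pass. Aqp3, found in the basolateral membrane of many epithelia, had intensities of 101, 91.3 and 106 with vehicle, 126, 120.2 and 91.4 with E2, 119.7, 54.7 and 131 with 3-MC, and 126, 112 and 129 with E2 + 3-MC. The E2 difference was 0.15 on the log2 scale (95% interval -0.33 to 0.63). Aqp7, through which fat cells release glycerol, was 881, 969 and 709.8 with vehicle, 720.3, 602 and 792 with E2, 724, 1049 and 933 with 3-MC, and 664, 709 and 1198 with E2 + 3-MC. Its E2 difference was -0.27 (95% interval -0.73 to 0.20). For Aqp3 the 3 rats given both treatments lay above the 3 vehicle rats, while every other pair of groups overlapped, and for Aqp7 all groups overlapped. In each gene 1 rat stood apart, the 3-MC rat 2 with its low Aqp3 and the E2 + 3-MC rat 3 with its high Aqp7.

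Among the chloride genes, Clca1 showed the widest separation of groups. Its intensities were 903, 837 and 1029.6 with vehicle, 3784, 3895 and 3613 with E2, 1577, 1073 and 1357 with 3-MC, and 2463, 1979.7 and 3224 with E2 + 3-MC. No 2 of the 4 groups overlapped. The order was E2 over E2 + 3-MC over 3-MC over vehicle. The mean rose from 923 ± 97.9 with vehicle to 3764 ± 142 with E2 (mean intensity ± SD of 3 rats). The log2 difference was 2.01 (standard error 0.18, 95% interval 1.63 to 2.40, adjusted p = 5.35e-05 in limma), or 4.04-fold.

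The cotransporter Slc12a2, which loads epithelial cells with chloride, had intensities of 380.0, 345 and 373 with vehicle and 513, 504 and 362 with E2. Hence 2 of the 3 E2 rats lay above every vehicle rat and the other one lay among them. The log2 difference was 0.30 (95% interval -0.03 to 0.64, adjusted p = 0.498 in limma). Slc12a2 was 334 to 424 with 3-MC and 351 to 447 with E2 + 3-MC. Cftr, the apical chloride channel that is mutated in cystic fibrosis, ran from 21.5 to 41.0 over the 12 rats, and its mean lay under the filter, whose limit corresponds to an intensity of 35.5. It was 31.8, 28.4 and 21.5 with vehicle and 41.0, 33.0 and 27.6 with E2, which overlap.

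Scnn1a, the pore-forming α subunit of the epithelial sodium channel, had nearly the same intensity in the 3 vehicle rats, 65.6, 66.5 and 68.5. With E2 it was 183, 208 and 196. With 3-MC the rats spread from 59.0 over 93.0 to 126, on both sides of the vehicle rats, and with E2 + 3-MC they were at 160.2, 109 and 125. The E2 rats lay above all others. The mean was 66.9 ± 1.51 with vehicle and 195 ± 12.5 with E2 (mean intensity ± SD of 3 rats). This was a log2 difference of 1.35 (standard error 0.20, 95% interval 0.93 to 1.77, adjusted p = 0.00443 in limma), or 2.55-fold. The calls of Aqp5, Clca1 and Scnn1a with E2 held without any single rat of the 12. By the unpaired test, gene by gene, that the methods name, Scnn1a was the only one of the 4 genes to pass, among 7 of all tested probe sets. This test was run on the values as deposited, without the normalization that the methods also name, so its counts are not those of the study.

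The apical carriers of phosphate and calcium did not pass. Slc34a2, which takes up phosphate together with sodium, was 193, 344 and 295 with vehicle, 469, 378 and 303 with E2, 289.7, 283 and 205 with 3-MC, and 351, 271 and 544 with E2 + 3-MC. Its E2 difference was 0.46 on the log2 scale (95% interval -0.09 to 1.01, adjusted p = 0.538 in limma). It had the widest spread within groups of the 10 genes, with a pooled SD of 0.37 on the log2 scale. Atp2b2 was dim, between 36.1 and 52.3 in all rats, and its E2 difference was -0.04 (95% interval -0.31 to 0.23). With E2 + 3-MC its 3 rats, at 49.6 to 52.3, lay above all vehicle and E2 rats, which reached 45.7. The differences of 0.21 from vehicle and 0.25 from E2 did not pass (adjusted p = 0.602 and 0.600 in limma).

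3-MC alone was compared with vehicle to see what the AHR ligand did without estrogen. None of the 9 tested genes passed in limma, and 0% of all tested probe sets did, while 991 of these had an unadjusted p under 0.05. Of the 9 genes, 1 reached that level by its unadjusted p, Clca1. Its 3 rats lay above all vehicle rats, with a mean of 1336 ± 253 against 923 ± 97.9 and a log2 difference of 0.51 (95% interval 0.13 to 0.90, adjusted p = 0.920 in limma). The log2 differences of Scnn1a (0.34), Aqp5 (0.27) and Aqp1 (-0.17) were smaller, and those of Aqp3, Aqp7, Slc12a2, Slc34a2 and Atp2b2 lay between -0.07 and 0.07. For the last 5 genes, the 95% intervals reached as far as -0.62 and 0.54, so that differences up to that size are not excluded.

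**Figure D2:**
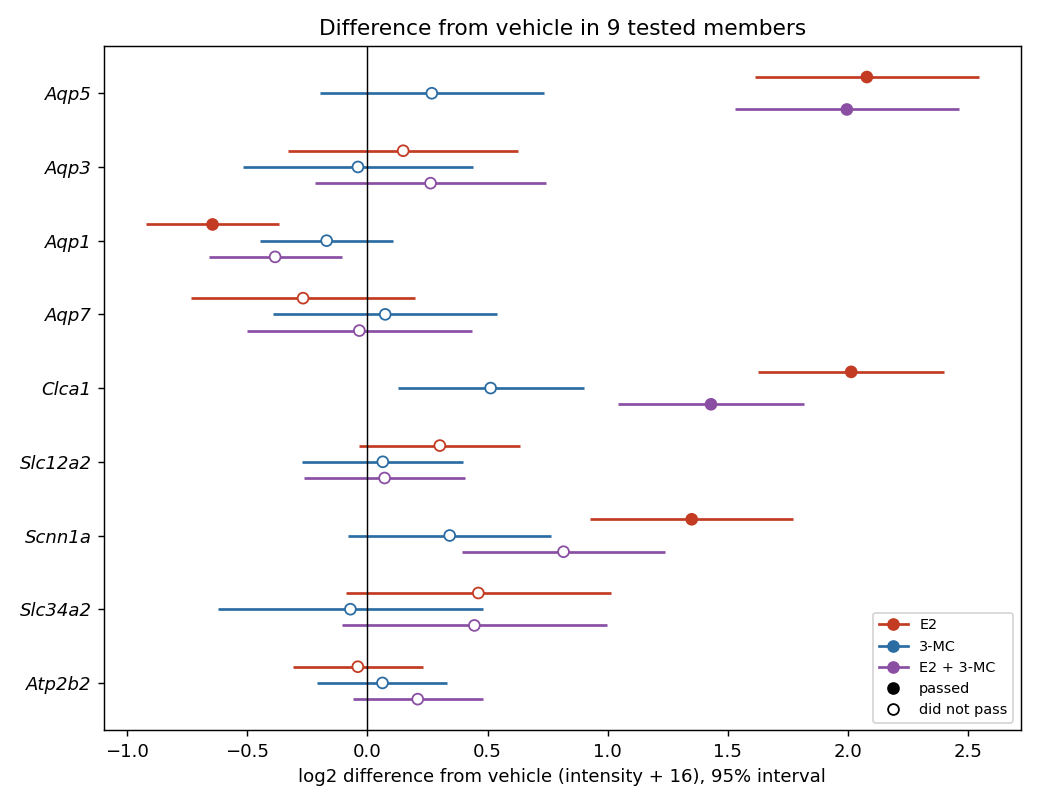
Log2 difference from vehicle (intensity + 16, x axis) of the 9 tested genes with E2, 3-MC and E2 + 3-MC, with 95% intervals from limma. Filled points passed, and these are Aqp5, Clca1, Scnn1a and Aqp1 with E2 and Aqp5 and Clca1 with E2 + 3-MC.

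E2 + 3-MC was compared with vehicle, with E2 and with 3-MC to see whether the estrogen differences remained in the presence of the AHR ligand. These comparisons share groups with each other and with the comparisons above, so their values are not independent. Against vehicle, 2 of the 9 genes passed, Aqp5 and Clca1, where 0.163% of all tested probe sets did. Aqp5 had a mean of 1164 ± 282 and a log2 difference of 2.0 from vehicle (standard error 0.22, adjusted p = 0.000546 in limma). Clca1 had a mean of 2556 ± 627 and a log2 difference of 1.43 (standard error 0.18, adjusted p = 0.00265). Scnn1a, at 131 ± 26.1, lay above vehicle in 3 of 3 rats, but its difference of 0.82 did not pass (adjusted p = 0.201 in limma). Without 3-MC rat 2, whose Scnn1a was the lowest of all 12 rats, it did (adjusted p = 0.0451). Aqp1 was 0.38 lower on the log2 scale and did not pass (adjusted p = 0.405).

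Against E2 alone, Aqp5 differed by less than the spread between rats, whereas Clca1 and Scnn1a were lower in each of the 3 rats than in any E2 rat without passing the test. None of the 9 genes passed in limma, and 0% of all tested probe sets did (2049 had an unadjusted p under 0.05). The log2 difference of Clca1 was -0.58 (95% interval -0.97 to -0.20, adjusted p = 0.434) and that of Scnn1a -0.53 (95% interval -0.95 to -0.11, adjusted p = 0.491). For Aqp5 it was -0.08, with a 95% interval from -0.55 to 0.38 that holds both no difference and a fall as large as the one estimated for Scnn1a. As a share of the log2 difference with E2 alone, the rats given both treatments had 96.0% for Aqp5, 71.0% for Clca1, 60.5% for Scnn1a and 59.6% for Aqp1. Both differences are from vehicle, so these shares include any difference with 3-MC alone.

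The interaction, which is the log2 difference made by E2 in the presence of 3-MC minus that in its absence, tests whether 3-MC altered the response to E2. It passed for none of the 9 genes in limma and for 0% of all tested probe sets, of which 1032 had an unadjusted p under 0.05. For Clca1 it was -1.10 (standard error 0.25, 95% interval -1.64 to -0.55, adjusted p = 0.894), and only 11 probe sets had a smaller unadjusted p. It was -0.88 for Scnn1a (95% interval -1.47 to -0.28) and 0.43 for Aqp1 (95% interval 0.04 to 0.82), and both values have the sign of a smaller response to E2 with 3-MC. For Aqp5 the value was -0.35, with an interval of -1.01 to 0.31. Against 3-MC alone, 1 of the 9 genes passed with E2 + 3-MC, where 0.111% of all tested probe sets did. This was Aqp5, 1.73 higher on the log2 scale (standard error 0.22, adjusted p = 0.00269 in limma). Clca1 was 0.92 higher (adjusted p = 0.112), and it passed without E2 + 3-MC rat 2 (adjusted p = 0.0335) and when the arrays were scaled to common medians (0.0363) or quantile normalized (0.0107). The differences from 3-MC alone of 0.47 for Scnn1a and -0.21 for Aqp1 did not pass (adjusted p = 0.964 for each in limma).

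Since Aqp5 and Clca1 had nearly equal differences with E2, they were set against each other within each rat. This contrast was chosen after the values were seen. The log2 level of Aqp5 minus that of Clca1, each from its vehicle mean, was -0.14, 0.12 and 0.22 in the E2 rats and 0.49, 0.63 and 0.57 in the E2 + 3-MC rats, without overlap. The group means differed by 0.50 (exact two-sided permutation p = 0.1, the smallest that 3 rats against 3 allow). In the vehicle rats the same quantity was -0.36, 0.52 and -0.16, a range that spans the values of both E2 groups but the 2 highest. For Aqp5 minus Scnn1a, the means were 0.73 ± 0.10 with E2 and 1.18 ± 0.40 with E2 + 3-MC (SD, n = 3 rats each), and 1 rat given both lay inside the range of the E2 rats (exact two-sided permutation p = 0.2).

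Relatives of these genes allow a comparison within families. On rat chromosome 2, the order of the chloride channel regulators in RefSeq (GRCr8) is Clca5, Clca4l, Clca4, Clca1 and Clca2. Clca5 was 253, 291 and 247 with vehicle and 1005, 984 and 513 with E2, a log2 difference of 1.54 (standard error 0.29, adjusted p = 0.0186 in limma). Clca4l rose from 67.1 to 79.5 with vehicle to 133 to 219 with E2 (log2 difference 1.12, adjusted p = 0.0289). In contrast, Clca4, which lies between Clca4l and Clca1, had a difference of -0.13, and Clca2, on the other side of Clca1, one of -0.01. Both were dim, at 58.0 or less in every rat. Clca genes are alike in sequence and how far their probes share signal was not tested. The call of Clca5 was lost without vehicle rat 1 (adjusted p = 0.0679), E2 rat 1 (0.106) or E2 rat 2 (0.115). That of Clca4l was lost without vehicle rat 1 (0.103), vehicle rat 2 (0.0756), E2 rat 1 (0.130) or E2 rat 2 (0.161). With E2 + 3-MC, Clca5 stood 1.20 and Clca4l 0.90 above vehicle on the log2 scale, which did not pass (adjusted p = 0.207 and 0.270).

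The sodium channel has subunits beside that of Scnn1a. Scnn1g, the γ subunit, was 232, 315 and 259 with vehicle and 677, 621 and 567 with E2, without overlap (log2 difference 1.17, standard error 0.24, adjusted p = 0.0275 in limma). Scnn1b, the β subunit and its neighbour on chromosome 1, was 288, 373 and 277 with vehicle and 573, 509.8 and 585 with E2, also without overlap, but its difference of 0.81 missed the threshold (adjusted p = 0.0559). The call of Scnn1g was lost without vehicle rat 1 (adjusted p = 0.105) or vehicle rat 3 (0.0583) and without E2 rat 1 (0.127), E2 rat 2 (0.126) or E2 rat 3 (0.0608), and Scnn1b passed under several alternatives, such as without E2 + 3-MC rat 2 (0.0311). With E2 + 3-MC the differences from vehicle were 0.45 for Scnn1g and 0.43 for Scnn1b, and neither passed. In that group rat 2 lay near the vehicle mean for both, at 0.01, and it was also the lowest of the 3 rats for Clca1, Clca5, Clca4l, Aqp5 and Scnn1a and for the median level of luminal epithelial markers.

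**Figure D3:**
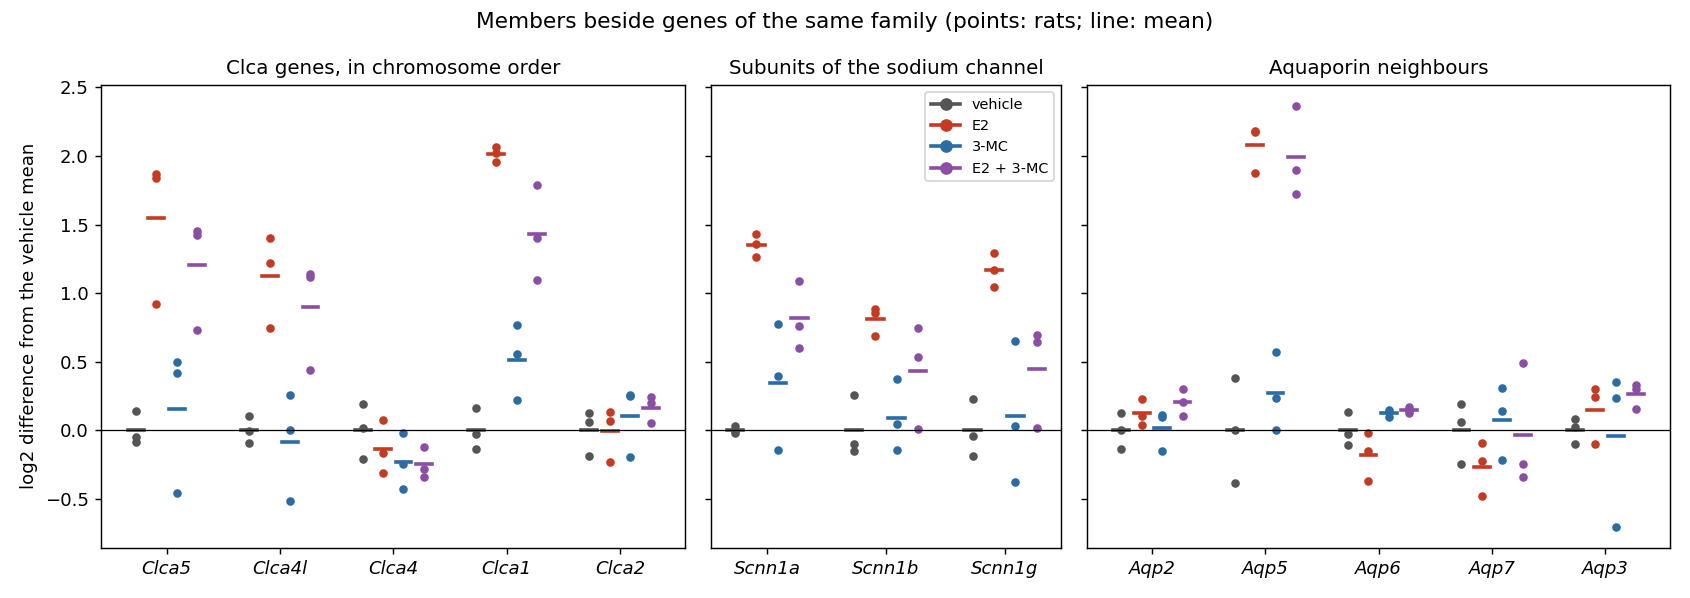
Log2 difference of each rat from the vehicle mean (intensity + 16, y axis) for 5 Clca genes, the 3 subunits of the epithelial sodium channel and 5 aquaporin genes. Points are rats and lines are group means, and with E2 the means of Clca5, Clca4l and Clca1 lie at 1.12 to 2.01 while those of Clca4 and Clca2 lie at -0.13 and -0.01.

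The aquaporin neighbours of Aqp5 on chromosome 7 did not pass. Aqp2, the vasopressin-regulated water channel of the kidney, lies on one side of Aqp5 and had an E2 difference of 0.12 on the log2 scale. Aqp6, on the other side, had one of -0.18. Their intensities stayed between 52.9 and 84.7 in all 12 rats. Of the 7 further aquaporins tested, 0 passed with E2 in limma, where 1.58% of all tested probe sets did. Their differences ran from -0.26 for Aqp4 to 0.20 for Aqp8.

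In the lists of other transport genes, few passed with E2, where 1.58% of all tested probe sets did. A count of 0 in a list of such size is near that share. Beside Clca5 and Clca4l, none of the 20 tested chloride channel genes and regulators passed, including Ano1, the calcium-activated chloride channel (0.67, adjusted p = 0.0536 in limma). Beside Scnn1g, none of the 7 tested genes of the sodium channel and its regulators did, among them Prss8, the protease that activates the channel (0.66, adjusted p = 0.0627), and Sgk1, a kinase that keeps it at the membrane (-0.60). Of 10 potassium channels of epithelia, 1 passed, Kcnk1, a background potassium channel, which was 129 to 147 with vehicle and 216 to 293 with E2 (log2 difference 0.82, adjusted p = 0.0241). The call of Kcnk1 was lost without vehicle rat 1 (adjusted p = 0.0890) or vehicle rat 3 (0.0573), and without E2 rat 1 (0.127) or E2 rat 2 (0.113). No gene passed in limma among 9 cotransporters of sodium, potassium and chloride and their kinases, 9 subunits of the sodium and potassium ATPase, 5 phosphate transporters, 17 calcium pumps, channels and sensors, and 12 proton and bicarbonate transporters. The calcium list held Atp2c2, a pump of the secretory pathway, at 0.42. The median log2 differences of these 9 lists, aquaporins included, lay between -0.31 and 0.30. In the other comparisons none of the genes in these lists passed, where at most 0.163% of all tested probe sets did.

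The genes whose pattern over the 12 rats was most like that of each gene that passed were found by the root mean square of the log2 differences, each gene taken from its own vehicle mean, among 12419 genes. For Aqp5 these were Tph1, which makes serotonin in tissues other than brain (0.34), Clca1 (0.39), Dlgap5l2 (0.40), Mup5 (0.45) and the prolactin receptor gene Prlr (0.54), against a median of 1.45 over all genes. Tph1 had the same standing with both treatments as with E2 alone, with log2 differences of 2.24 and 2.25 from vehicle. For Clca1 they were Prlr (0.28), Serpinb9 (0.29), Mup5 (0.31), and the mitotic genes Nusap1 (0.36) and Ccnb1 (0.37), against a median of 1.25. For Scnn1a they were Cd200 (0.21), Slc44a4, a choline transporter gene (0.21), Rexo5 (0.22), the receptor kinase gene Ret (0.23) and Kif4a (0.23), against 0.82. For Aqp1 they were Ttc7b (0.12), Slc43a3 (0.14), Gstm1 (0.14), Myct1 (0.14) and Itga7 (0.14), against 0.46.

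Marker genes of cell types were read in the same comparisons, and 1.58% of all tested probe sets passed with E2. Of 18 luminal epithelial genes, such as Krt18 and Cdh1, 4 passed with E2, all higher, and 15 were higher at an unadjusted p under 0.05, which 2737 of all tested probe sets reached in either direction (11.7%). Their median log2 difference was 0.58. The 4 became 2 without vehicle rat 1 or E2 + 3-MC rat 3, 1 without vehicle rat 3 and 0 without E2 rat 1 or 2. The summed intensity of the 18 genes was 7249 to 8601 with vehicle, 10649 to 13597 with E2, 7259 to 9614 with 3-MC and 8037 to 10527 with E2 + 3-MC. The median log2 level of the list in each rat was 0.68, 0.64 and 0.40 with E2 and 0.40, 0.06 and 0.33 with E2 + 3-MC. In each rat given E2, alone or with 3-MC, both Aqp5 and Clca1 stood at least 1.0 log2 units above the level of the luminal list. For Scnn1a that gap was 0.43 to 0.95. With E2 + 3-MC against E2, where Clca1 and Scnn1a had differences of -0.58 and -0.53, 0 of the 18 luminal genes passed in limma and 9 were lower at an unadjusted p under 0.05 (8.77% of all tested probe sets reached it in either direction), with a median of -0.36. Single luminal genes ran from -0.67 to 0.18 in that comparison. In the interaction 0 passed and 5 were lower at an unadjusted p under 0.05, with a median of -0.39. Single luminal genes ran there from -0.90 to 0.24, beside -1.10 for Clca1 and -0.88 for Scnn1a. The part of the luminal genes in the values of Aqp5, Clca1 and Scnn1a was not tested. None of 4 tested genes of salivary and lacrimal glands passed in limma in any comparison. The summed intensity of the 7 on the array was 296 to 356 with vehicle and 274 to 367 with E2.

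For Aqp1, the markers to set beside it are those of the endothelium. Of 10 such genes, including Cdh5 and Pecam1, 0 passed with E2 in limma and 8 were lower at an unadjusted p under 0.05 (11.7% of all tested probe sets reached it in either direction). Their median log2 difference was -0.48, and single genes ran from -0.65 to -0.32, beside -0.64 for Aqp1. Their summed intensity was 4516 to 5812 with vehicle, 3421 to 3873 with E2, 4018 to 5435 with 3-MC and 3329 to 4492 with E2 + 3-MC. Such a fall with E2 was not particular to the endothelium, as the fibroblast and myeloid lists had medians of -0.46 and -0.47. Among erythroid genes, the other known site of Aqp1, 0 of 4 tested passed in limma, with a median of -0.44. The summed intensity of the 5 on the array was 1541 to 4797 with vehicle and 1114 to 1473 with E2. For Aqp7, the 12 genes of white adipocytes had a median of -0.42 with E2, and 3 of them, Retn, Pparg and Lpl, were lower and passed, or 1 without vehicle rat 1 or E2 rat 1 or 2. Their summed intensity was 24110 to 28090 with vehicle and 17795 to 20496 with E2. In each case the part of the markers in the value of Aqp1 or Aqp7 was not tested.

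**Figure D4:**
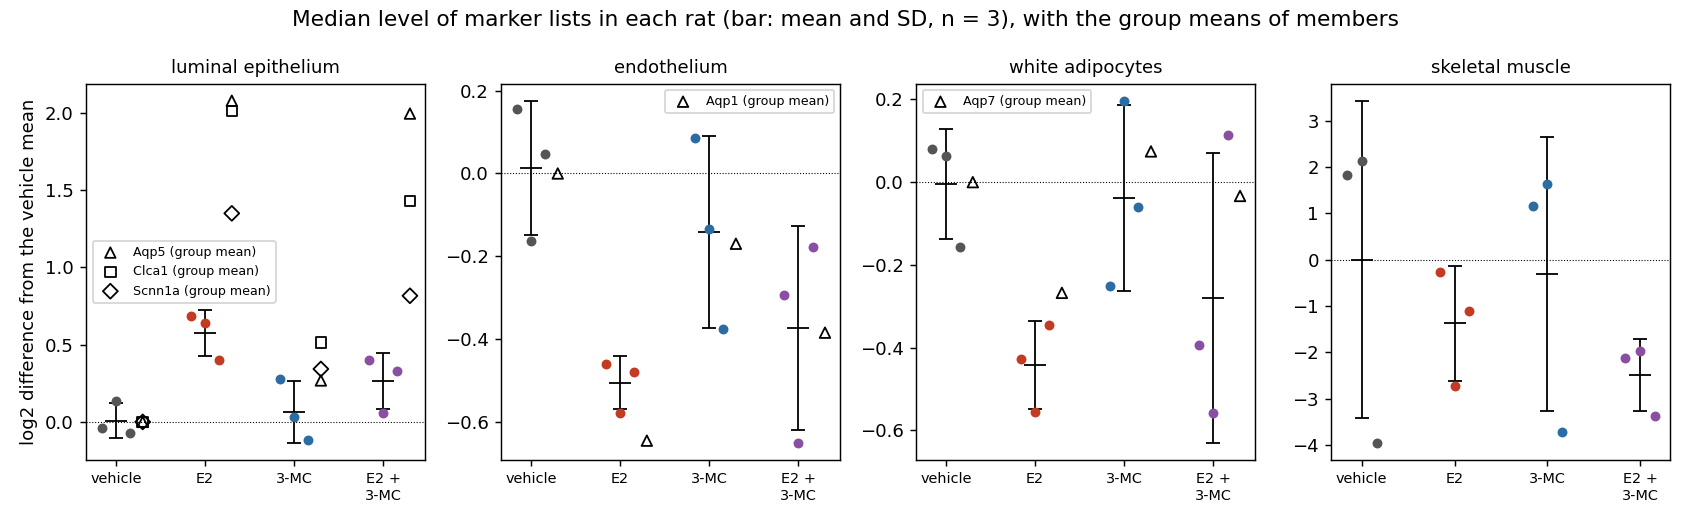
Median log2 level of 4 marker lists in each rat (points, with the mean and SD of 3 rats), from the vehicle mean, with group means of Aqp5, Clca1, Scnn1a, Aqp1 and Aqp7 as open symbols. With E2 the luminal list lies at 0.40 to 0.68, under Aqp5 at 2.08, and the endothelial list at -0.58 to -0.46, beside Aqp1 at -0.64, while the muscle list spreads from -3.95 to 2.13 with vehicle.

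The remaining marker lists are given by their counts, beside the 1.58% of all tested probe sets that passed with E2. With E2, 2 of 7 basal and myoepithelial genes were higher and passed (0 without vehicle rat 1 or 2 or E2 rat 1 or 2), with a median of 0.03, and 0 of 11 fibroblast genes passed in limma, with a median of -0.46. Of 10 myeloid genes 1 was higher and passed (0 without E2 + 3-MC rat 1, without any 1 of the E2 rats and without vehicle rat 1 or 2), and their mean level was -0.45 with E2 and 0.60 with E2 + 3-MC (median log2 difference from vehicle). The myeloid level of the vehicle rats alone ran from -0.64 to 0.76, and its mean with 3-MC alone was 0.53. Of 7 tested lymphocyte genes 0 passed in limma. Over the 8 on the array, the mean level was -0.29 with E2 and 0.74 with E2 + 3-MC. The lymphocyte level ran from -0.28 to 0.22 in the vehicle rats, and its mean with 3-MC alone was 0.43. With E2 + 3-MC against E2, 0 of either list passed, where 0% of all tested probe sets did. At an unadjusted p under 0.05, 7 of the 10 myeloid and 6 of the 7 lymphocyte genes were higher, with medians of 1.02 and 0.90. Of all tested probe sets, 8.77% reached that level in either direction. The part of the immune genes in the values of Clca1 and Scnn1a in that comparison was not tested. None of the 4 tested genes of epidermis and hair follicle passed.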

How the data were processed

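RNA of mammary gland tissue of 12 rats was measured on Affymetrix Rat Gene 1.0 ST arrays, 1 per rat. Several glands of each rat had been frozen for RNA, and the methods do not say which of them each array received. The authors deposited linear intensity values that they had summarized with PLIER in Expression Console. Their methods also name quantile normalization, scaling to the control median and removal of the lowest 20 percent in GeneSpring. In the values used here, arrays differ in distribution, controls are not set to a common level and low intensities are present. No normalization was added.

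Values were taken as log2(intensity + 16). Probe sets with a mean log2 above the 20th percentile of the array (23371 of 29214) were fitted with limma 3.58.1 in R 4.3.3, with 1 mean for each of the 4 groups. Tests were two-sided, and the 95% intervals come from the same fit. No depth exists on arrays. Gene symbols came from the platform annotation, of whose 15310 single symbols 15279 matched RefSeq (GRCr8). Plots were made in matplotlib 3.10.9 under Python 3.11.15. The procedure was tested on simulated data.

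All 10 genes were named. From each transport list, genes that passed were named (up to 4 with E2, up to 2 elsewhere), with 5 genes of like pattern for each gene that passed. Others were named after their values were seen. The genes and lists were chosen with earlier results of these data known. Same-numbered vehicle and 3-MC rats deviated together from their group means (correlations over probe sets 0.341, 0.442 and 0.564, each over the 0.1 required), so these numbers may mark pairs. In both groups rat 3 was also the one low in skeletal muscle markers (-3.95 and -3.72). Correlations between rats of unlike number were not computed, so whether these would be lower is not known. The part of muscle in the printed correlations was not tested. The values printed come from the fit without pairs, and the paired fit is an alternative, with 0 of the 9 genes passing with 3-MC in either. No source says what a number marks, and no other groups met this rule. The closing section gives the alternatives.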

Additional observations from a re-analysis of the deposited data

How the results depend on the processing

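The number of the 9 tested genes that passed was recomputed under other pseudocounts (1, 32), filters, scalings, fits and fold thresholds, and without each rat in turn. With E2 it was 4 and otherwise 1 to 4, with 1 by the methods' t-test (here without their normalization) and 3 to 4 without single rats. With E2 + 3-MC against vehicle it was 2, and became 1 with the replicate block on the compared groups, 0 by the t-test and 2 to 3 without single rats. Against 3-MC it was 1, and became 2 after quantile normalization or centring on array medians, 0 by the t-test and 1 to 2 without single rats. For 3-MC alone, E2 + 3-MC against E2 and the interaction it was 0 under every alternative run.

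The replicate block, which treats rats of the same number as paired, gave the same counts as without it when fitted on 12 arrays, 4 with E2 and 2 with E2 + 3-MC against vehicle, 1 with E2 + 3-MC against 3-MC and 0 elsewhere. On the compared groups alone, Aqp1 with E2 (adjusted p = 0.0897 in limma), Kcnk1 with E2 (0.0634) and Aqp5 with E2 + 3-MC against vehicle (0.0642) were lost. At a 2-fold threshold the count with E2 was 3, without Aqp1, and Kcnk1 was lost too. By the methods' t-test, Aqp5 (0.178), Aqp1 (0.180) and Clca1 (0.0654) were lost with E2, as were Clca5 (0.296), Clca4l (0.272), Scnn1g (0.179) and Kcnk1 (0.244). The number of all probe sets that passed with E2 was 370, against 652 with array weights, 207 with the block on compared groups, 85 to 447 without single rats and 7 by the t-test. None of the 7 differences that passed changed sign. Of the 47 that did not, 18 changed sign under at least 1 alternative, which is not counted as a reversal since no call was made. A choice of the dimmer probe set was not run because each gene has 1. The cause of these differences was not tested.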
